A study of Mus musculus with 4 samples.

Results

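Transcription factors that give cortical projection neurons their laminar and projection identity were followed through single cells of the late fetal mouse cortex. The group was set by name and comprised 9 of the 16600 genes in the table: Bcl11b, Fezf2, Tbr1 and Sox5, which are associated with deep-layer neurons, Cux1, Cux2, Pou3f2 and Pou3f3, which are associated with upper-layer neurons, and Bhlhe22, which was placed in neither set. All 9 were present in the table. Measured values played no part in the rule, but the group was proposed with earlier results of these data known.

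The cells came from 4 C57BL/6J fetuses taken at E18.5, 2 Setd5+/+ and 2 Setd5+/-, with 1 library per fetus. Setd5+/- fetuses carried 1 copy of the Setd5 GFP allele, a heterozygous knockout present in every cell of the animal rather than in a chosen lineage. Live cells of dissected cortex were sorted as CD24+, a pan-neuronal surface marker, and CD45-, the last a marker of hematopoietic cells, and were sequenced with 10x Genomics 3′ v2 chemistry. The prefixes of the cell barcodes named the libraries WT3, WT6, Het5 and Het9, which gives the genotype of each but does not tie it to a replicate number.

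Projection neurons of the neocortex are glutamatergic cells that are born from radial glia, largely through intermediate progenitors, in an order that runs from deep to upper layers. Fezf2 and Bcl11b act in the specification of subcerebral neurons, Tbr1 in corticothalamic and early-born neurons, and Sox5 in the timing of deep-layer production, whereas Cux and Pou3f factors act in the generation, migration and dendrite growth of upper-layer neurons. Several of these genes repress one another during development, and several are also used outside the excitatory lineage, Bcl11b in striatal medium spiny neurons being the best known case.

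The libraries held 1453, 1954, 1710 and 1445 cells, for WT3, WT6, Het5 and Het9 in turn, and 6562 cells in all. Cells carried 1258 to 14996 UMIs, which are counts of single captured molecules, and the libraries held 8205330 to 11742956. Setd5 was lower in both Setd5+/- libraries, with a log2 difference of -0.89 (SE 0.08, adjusted p = 0.00696, limma). Sex followed genotype: Xist, the RNA that coats the inactive X chromosome, reached 20.6 and 21.5 counts per 10000 UMIs in the Setd5+/+ libraries but only 0.152 and 0.310 in the Setd5+/- ones. The effects of sex and of Setd5 on the factors therefore cannot be told apart. A barcode that was also present in another library was carried by 277 cells (4.22%), of which 145 lay in the melanocyte-like cluster and 94 in the immune-like cluster. Nothing in the sources used here says whether litters or sort days were shared.

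Promoter sequences of the factors were read to show the regulatory DNA that each gene starts from, and 8 of the 9 matched a RefSeq entry on GRCm38.p6. Each window runs from 250 bases before to 50 bases after an annotated start. Pou3f2 and Pou3f3 are shown as the pair most often detected together, Tbr1 as the factor whose window held a homeodomain motif, and Cux2 as the factor whose window held the E-box CAGATG. Capitals mark the motif TAATTA in Tbr1 and, on the reverse strand, CAGATG in Cux2. The windows lie at chr4:22488317-22488616 on the minus strand (Pou3f2), chr1:42695518-42695817 on the plus strand (Pou3f3), chr2:61804203-61804502 on the plus strand (Tbr1) and chr5:122047776-122048075 on the minus strand (Cux2, the second of its 2 listed starts).
Pou3f2: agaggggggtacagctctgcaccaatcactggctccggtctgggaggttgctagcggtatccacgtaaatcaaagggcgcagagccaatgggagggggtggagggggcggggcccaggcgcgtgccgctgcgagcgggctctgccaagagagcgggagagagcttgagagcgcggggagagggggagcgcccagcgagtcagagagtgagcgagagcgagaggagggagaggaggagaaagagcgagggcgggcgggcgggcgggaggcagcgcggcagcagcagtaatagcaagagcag
Pou3f3: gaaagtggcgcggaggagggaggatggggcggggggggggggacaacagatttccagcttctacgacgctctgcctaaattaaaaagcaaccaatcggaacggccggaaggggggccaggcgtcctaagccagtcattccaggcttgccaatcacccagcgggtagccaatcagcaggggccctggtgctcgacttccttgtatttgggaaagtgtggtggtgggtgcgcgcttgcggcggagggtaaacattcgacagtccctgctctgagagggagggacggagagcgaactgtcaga
Tbr1: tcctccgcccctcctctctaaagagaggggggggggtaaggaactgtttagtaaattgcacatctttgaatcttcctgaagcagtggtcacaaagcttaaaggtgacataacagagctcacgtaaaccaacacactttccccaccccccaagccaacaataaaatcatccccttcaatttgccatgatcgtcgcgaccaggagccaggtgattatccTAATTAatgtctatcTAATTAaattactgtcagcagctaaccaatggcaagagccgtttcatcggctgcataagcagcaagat
Cux2: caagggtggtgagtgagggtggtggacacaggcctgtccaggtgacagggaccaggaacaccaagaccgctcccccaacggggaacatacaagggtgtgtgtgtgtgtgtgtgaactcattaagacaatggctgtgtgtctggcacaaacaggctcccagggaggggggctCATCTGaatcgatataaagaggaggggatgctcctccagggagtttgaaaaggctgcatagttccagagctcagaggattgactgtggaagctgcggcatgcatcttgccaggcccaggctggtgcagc
The motifs searched, on both strands, were CAGATG, an E-box bound by proneural bHLH factors, ATGCAAAT, the octamer bound by POU factors, and TAATTA, a homeodomain core. No letters are shared between the marked matches. CAGATG was present in 12.4% of 15300 promoter windows of the same length, ATGCAAAT in 1.34% and TAATTA in 2.88%. Among the 9 windows of the factors, Tbr1 held TAATTA at 2 places and the second Cux2 window held CAGATG at 1 place, and the other windows held none of the motifs. Base composition differed widely among the windows, from 39.7% G and C with 3 CG pairs in Sox5 to 80.3% with 48 CG pairs in the first Cux2 window, against a median of 60% and 19 over all windows. Pou3f2 had 67.7% and 24 CG pairs, Pou3f3 60.3% and 18, and Tbr1 46% and 7.

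Cux1 and Cux2 share chromosome 5 (GRCm38: 136248135 to 136567490 and 121856366 to 122050102, both on the minus strand), and the other factors lie on a chromosome each. Bcl11b lies on chromosome 12 (107910403 to 108003602, minus), Fezf2 on chromosome 14 (12342094 to 12348189, minus), Tbr1 on chromosome 2 (61802930 to 61814114, plus) and Sox5 on chromosome 6 (143828425 to 144781977, minus). Pou3f2 lies on chromosome 4 (22482780 to 22488366, minus), Pou3f3 on chromosome 1 (42695768 to 42703176, plus) and Bhlhe22 on chromosome 3 (18054174 to 18057517, plus). Antisense genes overlap Sox5 (Sox5os1 and Sox5os2) and Cux2 (Gm15637), and reads from them cannot be told apart from the factor here, since the use of strand in counting is not given in the sources used here.

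Detection in excitatory neurons and in other cells was examined first. Neurod2, a bHLH factor of postmitotic glutamatergic neurons, had at least 1 UMI in 3475 cells (53.0%), which made up 55.5%, 44.5%, 56.0% and 58.2% of the libraries. Median depth was similar on either side of this gate, at 5798 UMIs in Neurod2-positive and 5628 in Neurod2-negative cells. These cells held 54.2% of all UMIs in the table, which is the share that a gene used evenly by all cells would reach. Bhlhe22 had 96.3% of its UMIs in Neurod2-positive cells, Tbr1 88.5%, Cux2 81.1%, Fezf2 75.4% and Sox5 72.1%. Pou3f2 (68.6%) and Pou3f3 (65.8%) were intermediate, Cux1 (55.8%) lay close to the background, and Bcl11b (48.8%) lay below it.

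Every factor passed the test between Neurod2-positive and Neurod2-negative cells of the same library, 9 of 9 against 56.5% of all 8156 genes tested. Bhlhe22 showed the largest rise, from 0.0651, 0.0646, 0.0809 and 0.0587 counts per 10000 in Neurod2-negative cells of WT3, WT6, Het5 and Het9 to 1.17, 1.55, 1.39 and 1.59 in Neurod2-positive cells (log2 difference 3.18, SE 0.08, adjusted p = 2.31e-11). Tbr1 rose from 0.149, 0.157, 0.151 and 0.188 to 1.42, 1.25, 1.23 and 1.14 (2.38, SE 0.08). For both genes the lowest Neurod2-positive library stood far above the highest Neurod2-negative one. Cux2 (1.41), Fezf2 (1.30), Sox5 (1.04), Pou3f2 (1.03) and Pou3f3 (0.78) rose as well, on the scale of log2(mean counts per 10000 + 0.1).

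Bcl11b went the other way. Its level was 3.27, 4.27, 2.90 and 3.83 in Neurod2-negative cells and 2.43, 2.75, 2.12 and 2.42 in Neurod2-positive cells, a log2 difference of -0.53 (SE 0.05, adjusted p = 9.18e-07). The difference was present in each of the 4 libraries, although the share of cells with a UMI was nearly equal, at 50.5% of Neurod2-positive and 49.8% of Neurod2-negative cells. Thinning drew 3000 UMIs from each cell and left out 526 shallower cells, 4.66% of Neurod2-positive and 11.8% of Neurod2-negative ones, among them 95 of the 369 cells of the striatal neuron-like cluster, and it set the Neurod2 gate anew, with 2874 positive cells. The Bcl11b difference was then -0.13 and no longer passed the threshold. In the same deeper cells with all of their UMIs, an alternative chosen after the data were seen, it was -0.35 (adjusted p = 0.000279, limma). Cux1, with 1.66, 1.49, 1.67 and 1.77 in Neurod2-positive against 1.58, 1.38, 1.47 and 1.38 in Neurod2-negative cells, rose by only 0.17 (SE 0.05, adjusted p = 0.0125), and this call was lost without Het5, without Het9 and without the cells of shared barcodes.

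Levels were then placed on 14 clusters that were built without the 9 factors, of which the 12 largest, each with 20 cells or more per library, were used. A cluster was named only from marker lists, and since clusters were made from these cells the levels are descriptions. Excitatory-like cells formed clusters 0 (1168 cells, led by Cntn2 and Hs6st2), 1 (887 cells, led by Cxcl12 and Cdh8) and 6 (566 cells, led by Tac2, Pcp4 and Nr2f2). The others were intermediate progenitor-like (cluster 4), S-phase cells with Neurog2 (cluster 9), radial glia-like (cluster 3), cycling (cluster 2), interneuron-like (cluster 5), striatal neuron-like (cluster 8), melanocyte-like (cluster 10), immune-like (cluster 11) and a cluster left unnamed with Gsx1 and Nbl1 (cluster 7). The marker list that came second in the cycling cluster 2 was that of subpallial neuroblasts or progenitors. Neurod2-positive cells made up 99.6%, 93.7% and 97.3% of clusters 0, 1 and 6, 76.5% of cluster 4, and 0% of the 147 melanocyte-like cells, which allows a share of up to 2.04%.

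Detection was also read in melanocyte-like cells (median 5362 UMIs) and immune-like cells (median 1923 UMIs). Of these, 145 and 94 carried a barcode that was also present in another library. Whether their values measure stray RNA in these libraries was not tested. Fezf2, Cux2, Pou3f3 and Bhlhe22 had no UMI in the melanocyte-like cells, and Tbr1, Sox5, Bcl11b and Pou3f2 were detected in 0.680%, 5.44%, 1.36% and 2.04% of them. Cux1 was detected in 23.1%, above the other 8 factors by a wide margin. In the 105 immune-like cells, Bcl11b was detected in 16.2% and Cux1 in 6.67%, Pou3f3 was detected in 0.952%, and Fezf2, Tbr1, Sox5, Cux2, Pou3f2 and Bhlhe22 had no UMI, which allows a share of up to 2.86%. These intervals and limits cover counting error only.

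Among the deep-layer factors, Bcl11b was highest outside the excitatory lineage. It reached 16.1 ± 1.32 counts per 10000 (SD, n = 4 libraries) in striatal neuron-like cells, where 92.7% of cells had a UMI, and the range over libraries, 14.5 to 17.5, did not meet that of any other cluster. Interneuron-like cells followed at 5.09 ± 0.56, again apart from the next. Excitatory-like clusters 6 (3.77 ± 0.44) and 0 (3.11 ± 0.44) and cycling cells (2.91 ± 0.22) overlapped, cluster 1 stood lower at 1.90 ± 0.17, and intermediate progenitor-like (0.276) and radial glia-like cells (0.140) were near the foot of the order.

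Fezf2 was restricted to the dorsal lineage in another way. Cluster 6 (1.29 ± 0.15) and intermediate progenitor-like cells (1.23 ± 0.15) had overlapping ranges, with a UMI in 50.9% and 50.7% of cells, and cluster 9 (0.884) and radial glia-like cells (0.782) came next. Clusters 0 (0.584) and 1 (0.583) did not differ beyond their spread. In striatal neuron-like, cycling, interneuron-like cells and cluster 7 the level lay between 0.0204 and 0.0301 and 0.696% to 1.66% of cells had a UMI. Fezf2 was the only deep-layer factor whose range in radial glia-like cells overlapped that of an excitatory-like cluster, and 38.1% of radial glia-like cells had a UMI of it.

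Tbr1 declined stepwise from cluster 6 (2.17 ± 0.20) to cluster 1 (1.52 ± 0.22) and cluster 0 (1.15 ± 0.14), with ranges that did not overlap between these neighbours. Intermediate progenitor-like cells (0.815) and cluster 9 (0.728) overlapped each other, and every other cluster lay at 0.0391 or below. Sox5 had its highest level in cluster 0 (1.97 ± 0.21), apart from cluster 1 (1.36 ± 0.11), interneuron-like cells (1.23 ± 0.27) and cluster 6 (1.20 ± 0.04), which overlapped. Sox5 was low in striatal neuron-like cells, at 0.140 with a UMI in 4.61% of cells, beside 5.44% of melanocyte-like cells.

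All of the upper-layer factors except Pou3f2 were highest in cluster 0, apart from the next cluster in range. Cux2 fell from 1.01 ± 0.10 in cluster 0 to 0.573 ± 0.07 in cluster 1 and 0.284 ± 0.07 in cluster 6. Cux1 was 2.57 ± 0.16 in cluster 0, but cycling (1.76 ± 0.08) and interneuron-like cells (1.72 ± 0.06) stood above cluster 1 (1.34 ± 0.08) and cluster 6 (0.875 ± 0.10). Pou3f3 was 3.51 ± 0.23 in cluster 0, 2.79 ± 0.13 in cluster 1 and 1.16 ± 0.13 in cluster 6. Pou3f2 reached 4.27 ± 0.08 in cluster 1, 3.93 ± 0.69 in cluster 9 and 3.9 ± 0.35 in cluster 0, whose ranges overlapped, and 0.921 ± 0.18 in cluster 6. Cluster 6 therefore held the lowest level of Cux1, Cux2, Pou3f2 and Pou3f3 among the excitatory-like clusters and the highest mean of Bcl11b, Fezf2 and Tbr1, although Bcl11b overlapped cluster 0 in range.

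Bhlhe22, which takes part in the area identity of postmitotic projection neurons, cut across this order. It was 2.59 ± 0.44 in cluster 0 and 2.44 ± 0.41 in cluster 6, which overlapped, but 0.479 ± 0.13 in cluster 1, where 19.1% of cells had a UMI against 66.3% and 62.5%. Pou3f2 and Bhlhe22 thus showed the opposite ranking of clusters 1 and 6. Outside excitatory-like cells, cluster 9 and intermediate progenitor-like cells, Bhlhe22 did not exceed 0.0745 in these 12 clusters. Cluster 12, with 35 cells led by Reln, Rspo3 and Lhx1, was too small to test, but Tbr1 had a UMI in all 35 of its cells and a level of 5.18, above every other cluster.

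**Figure D1:**
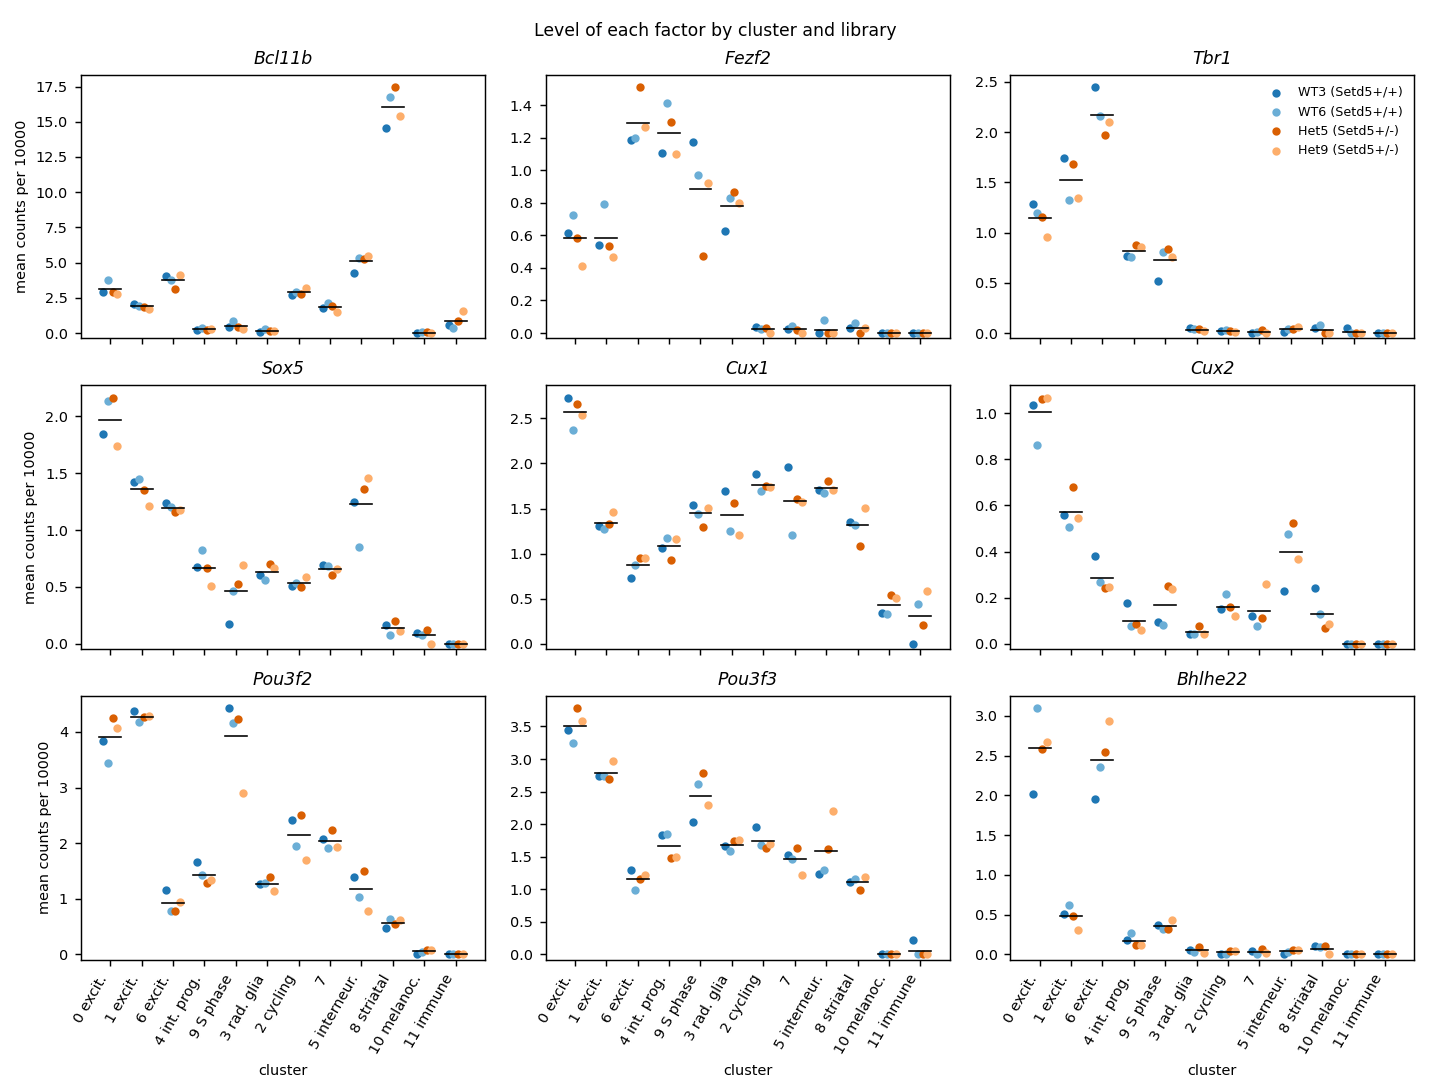
Mean counts per 10000 UMIs (vertical axis, linear, a separate range for each factor) in each of the 12 largest clusters (horizontal axis), with 1 point per library (blue Setd5+/+, orange Setd5+/-) and a bar for the mean of the 4. Bcl11b peaks in striatal neuron-like cells at 16.1, Fezf2 is shared by cluster 6, progenitor-like and radial glia-like cells, and Bhlhe22 stands at 2.59 and 2.44 in clusters 0 and 6 and at 0.479 or below elsewhere.

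The gene whose mean level ran most closely with each factor over these 12 clusters was sought among 5796 genes, by Pearson's r of log2 levels. The clusters share libraries and cell lineages, and the values are descriptions. Tbr1 ran with Neurod1 (r = 0.99), Fezf2 with Emx1 (0.97), a homeobox gene of the dorsal telencephalon, Bhlhe22 with Prdm8 (0.97), Bcl11b with Cmip (0.94), Sox5 with Mapk7 (0.94), Cux1 with Rnf2 (0.93) and Cux2 with Map3k12 (0.92). Pou3f3 was closest to Pantr1 (0.98), a long noncoding RNA gene on the minus strand at 42590782 to 42694842 of chromosome 1, directly upstream of Pou3f3. Pou3f2 was closest to Pou3f3 (0.95), the only case in which a factor's nearest gene was another factor.

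Co-detection within Neurod2-positive cells was measured for all 36 pairs as the log2 odds ratio of having a UMI of both, computed in each library. A value of 0 is what independent detection gives. Cells are not replicates, so the values carry no p. For comparison, 90 pairs of a factor with a housekeeping gene had a median of -0.01 and ran from -0.71 to 0.70, and from -0.89 to 0.61 with cells stratified by depth. Of the 36 factor pairs, 20 lay above 0 and 5 below 0 in all 4 libraries.

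The upper-layer factors were found together. All 6 pairs among Cux1, Cux2, Pou3f2 and Pou3f3 lay above 0 in every library, with a median of 1.02 and a range of 0.80 to 1.46, all beyond the highest housekeeping pair. Pou3f2 and Pou3f3 led, at 1.36, 1.58, 1.34 and 1.56 in WT3, WT6, Het5 and Het9 and a mean of 1.46, with 1679 cells holding a UMI of both where the shares of each would give 1499. Cux2 and Pou3f2 followed at 1.1, 1.49, 1.45 and 1.52 (mean 1.39), and 79.2% of Cux2-positive cells had a UMI of Pou3f2. Cux2 and Pou3f3 reached 1.08, and Cux1 with Pou3f2 0.95. The libraries of the 2 genotypes overlapped for each of these pairs except Cux1 with Pou3f3, at 0.76 and 0.62 against 1.0 and 0.82. Among the Neurod2-positive cells of single clusters the Pou3f2 and Pou3f3 pair stayed above 0 in every library of clusters 0 (0.89) and 6 (1.03), but not of cluster 1 (0.05, from -0.34 to 0.43), where 80.6% of all cells held Pou3f2. No upper-layer pair was above 0 in every library of cluster 1, with means from -0.17 (Cux1 with Pou3f3) to 0.66 (Cux2 with Pou3f2). In cluster 6 Cux1 with Cux2 (0.09) and with Pou3f3 (0.42) had libraries on both sides of 0. In cluster 0 each upper-layer pair was above 0 in every library.

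Over the gate as a whole, Fezf2 and the upper-layer factors were found apart on average. Fezf2 with Cux2 stood at -0.73, -1.02, -1.19 and -1.64 (mean -1.15), with 140 cells holding both where 228 would be given by the shares of each. Fezf2 with Pou3f2 stood at -0.51, -1.10, -1.17 and -1.55 (mean -1.08), and Fezf2 with Pou3f3 at -0.30, -0.41, -0.61 and -0.66 (mean -0.50). In these 3 pairs all libraries were below 0, with the Setd5+/- libraries below the Setd5+/+ ones. The genotypes did not overlap in 14 of the 36 factor pairs (38.9%) and in 25 of the 90 housekeeping pairs (27.8%). Fezf2 with Cux1 averaged -0.51, but WT3 was at 0.05. Fezf2-positive cells were deeper, at a median of 6620 UMIs against 5469, and 10 housekeeping genes had a median of 0.35 with Fezf2. Cux2-positive cells were shallower, at 5311 against 5949. With cells stratified by depth, the means moved toward 0 but stayed below it, at -0.93 for Fezf2 with Cux2, -0.90 with Pou3f2 and -0.46 with Pou3f3. Stratified in the same way, the housekeeping genes ran from -0.87 to 0.23 with Fezf2 (median 0.07), so that the value for Pou3f3 lay inside that range and those for Cux2 and Pou3f2 just below it. Fezf2 and Cux2 were also found apart inside each excitatory-like cluster, at -0.97, -0.85 and -1.41 in clusters 0, 1 and 6. Every library of each cluster was below 0. This did not hold in each cluster for the other upper-layer factors. In the same order of clusters, Fezf2 with Pou3f2 was at -0.87, 0.04 and -0.82. Fezf2 with Pou3f3 was at -0.16, 0.41 and -0.40, and with Cux1 at -1.04, 0.11 and 0.01.

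Over the gate as a whole, deep-layer factors did not behave as a block. Bcl11b with Tbr1 lay at 0.85, 0.72, 0.66 and 0.43 (mean 0.67) and Bcl11b with Sox5 at 0.39, 0.42, 0.42 and 0.65 (mean 0.47), while Bcl11b with Fezf2 was below 0 in every library at -0.38, -0.04, -0.38 and -0.31 (mean -0.28). The other pairs, Fezf2 with Tbr1 (-0.05), Fezf2 with Sox5 (0.00) and Tbr1 with Sox5 (0.06), lay near 0 with libraries on both sides. In cluster 6, where Fezf2 and Tbr1 each had their highest level among the 12 largest clusters, the 2 were found apart at -1.01, below 0 in every library, with 134 cells holding both among 283 with Fezf2 and 306 with Tbr1. Among the 16 pairs of a deep-layer with an upper-layer factor, 6 were above and 3 below 0 in every library, with a median of 0.12. Sox5 gave positive means with all 4 upper-layer factors, from 0.19 with Cux1 to 0.58 with Pou3f3, and Bcl11b with Cux2 reached 0.76. In cluster 0, however, Bcl11b with Fezf2 was at 0.73, above 0 in every library. There Bcl11b was at -0.35 with Cux2, -0.70 with Pou3f2 and -0.68 with Cux1, each below 0 in every library. In clusters 1 and 6 Bcl11b with Fezf2 was at -0.32 and -0.32, and Bcl11b with Cux2 at 1.16 and 1.04.

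Several Bcl11b pairs depended on whether cells with progenitor genes stayed in the gate. Eomes, the T-box factor of intermediate progenitors, and Bcl11b were found apart at -2.07, as were Eomes and Bhlhe22 (-2.51) and Eomes and Cux2 (-1.55), whereas Eomes and Fezf2 went together at 0.75. In an alternative chosen after the data were seen, cells with a UMI of Eomes or of Neurog2 were left out, and 1750 Neurod2-positive cells remained. Bcl11b with Fezf2 then rose to 0.33, above 0 in every library, and Bcl11b with Tbr1 to 1.05, while Bcl11b with Cux2 went to -0.06 and Bcl11b with Bhlhe22 from 1.16 to 0.20. Housekeeping genes in the same cells ran from -0.22 to 1.21 with Bcl11b and from -0.23 to 0.74 with Fezf2, and each of these values of Bcl11b lay inside its range. Fezf2 with Bhlhe22 went from 0.42 to 1.28. Fezf2 with Cux2 (-1.11), Fezf2 with Pou3f2 (-0.87) and Pou3f2 with Pou3f3 (1.52) stayed on the same side of 0 in every library. Over this and the other gates and the thinned counts, 25 of the 36 pairs kept their sign, among them every upper-layer pair and the 4 pairs of Fezf2 with upper-layer factors.

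Bhlhe22 was found with Bcl11b at 1.43, 0.98, 1.30 and 0.92 (mean 1.16), with Sox5 at a mean of 0.72 and with Cux2 at 0.62, each above 0 in every library. Inside clusters 0, 1 and 6 the means were 0.08, 0.40 and 0.48 with Bcl11b and 0.30, 0.21 and -0.02 with Sox5. With Cux2 they were -0.24, 0.37 and -1.17, the last below 0 in every library. Over the whole gate, 6 of the 8 pairs with Bhlhe22 lay above 0 in every library, and Pou3f3 with Bhlhe22 (0.06) had libraries on both sides. Pou3f2 with Bhlhe22, at -0.34, -0.14, -0.27 and -0.40 (mean -0.29), was below 0 in every library.

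**Figure D2:**
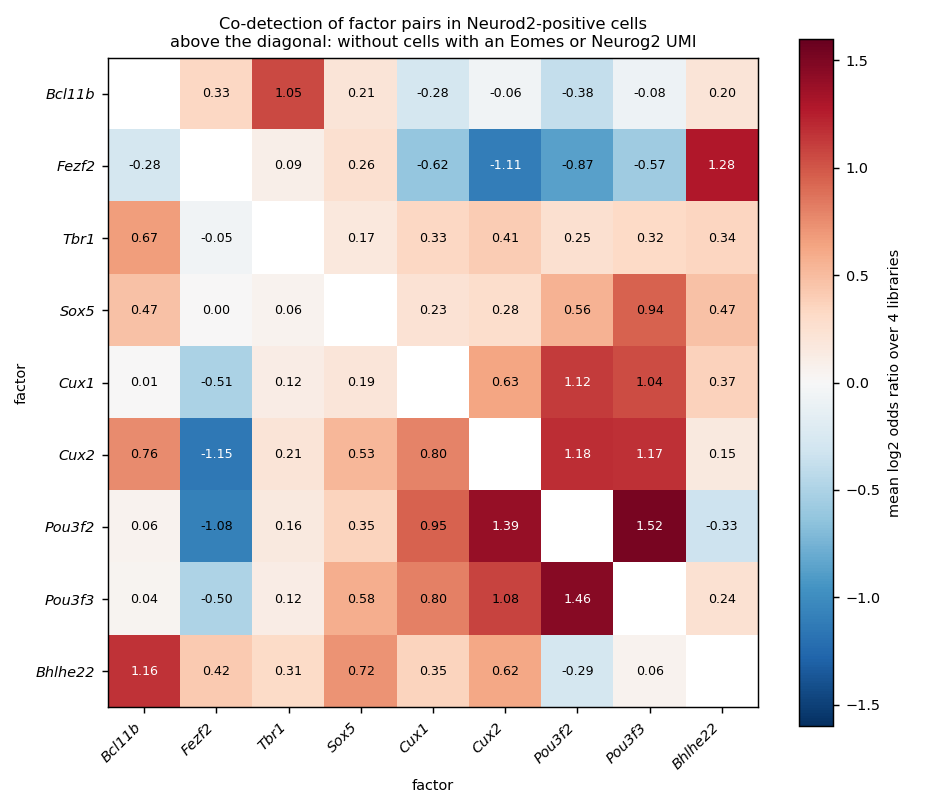
Mean log2 odds ratio over the 4 libraries for each pair of factors in Neurod2-positive cells (colour and number, 0 for independent detection), below the diagonal for all 3475 cells and above it for the 1750 cells without a UMI of Eomes or Neurog2. The upper-layer pairs form a block from 0.80 to 1.46, the Fezf2 line is blue against Cux1, Cux2, Pou3f2 and Pou3f3, and the Bcl11b and Fezf2 pair changes from -0.28 to 0.33 across the diagonal.

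Single cells mostly held factors of both sets. A UMI of a deep-layer factor and of an upper-layer factor was present in a mean of 79.3% of Neurod2-positive cells, and the product of the shares of each set gave 79.4%. Only deep-layer factors were present in 8.43% and 10.8% of cells of the Setd5+/+ libraries and in 7.93% and 7.97% of the Setd5+/- ones, and only upper-layer factors in 11% and 8.52% against 11.9% and 11.7%. The genotypes did not overlap for either class, and with 4 libraries the exact two-sided permutation test cannot go below p = 0.33. With cells thinned to 3000 UMIs the deep-only, upper-only and mixed classes became 15.7%, 19.9% and 58.8%, and deep-only shares then overlapped between genotypes. The thinned mixed class was again close to its product, 58.6%.

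The median cell held 4 of the 9 factors, and 3 after thinning. None of the 9 was detected in 31 cells (0.892%), 5 or more in 42.9%, and all 9 in 3 cells. Detection rested on few molecules: 520 of the 713 Cux2-positive cells and 705 of the 1126 Fezf2-positive cells had a single UMI of the gene, and the highest count in a cell was 7 and 9, against 27 for Bcl11b.

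**Figure D3:**
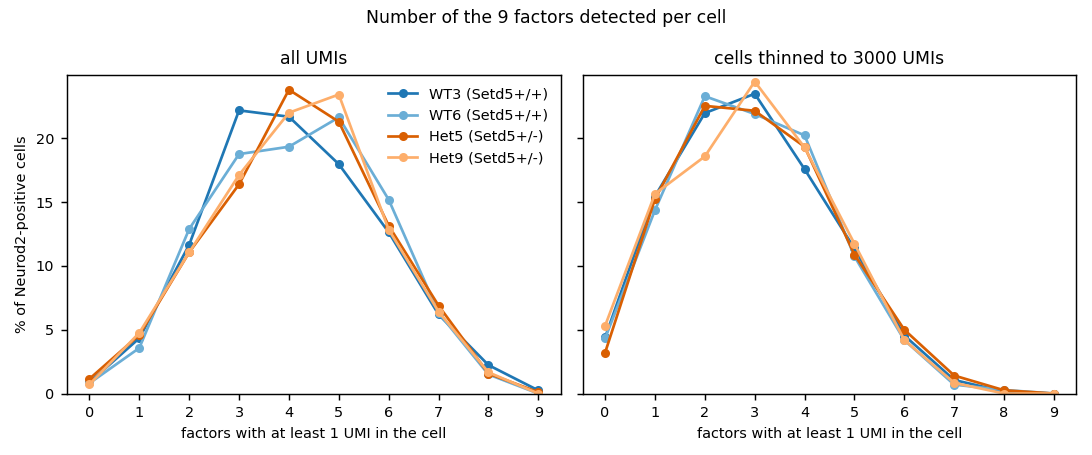
Share of Neurod2-positive cells (vertical axis, %) by the number of the 9 factors with at least 1 UMI (horizontal axis), with 1 line per library, for all UMIs (left) and for cells thinned to 3000 UMIs (right). The median moves from 4 to 3 with thinning, and 5 or more factors are seen in 42.9% of cells on the left.

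Neurod2-positive cells that carried each factor were then compared with those of the same library that lacked it, across all genes tested, so that every value rests on 4 paired libraries. Not all of these cells were neuron-like: 14.8% lay in the intermediate progenitor-like cluster 4 and 3.97% in cluster 9. The factor itself made the groups and is left out of the counts below.

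Fezf2-positive cells had lower levels of 7 of the other 8 factors, where 12.2% of 7849 genes passed in either direction. Cux2 fell by 1.13 (SE 0.10, adjusted p = 1.24e-11), Pou3f2 by 0.82 (SE 0.07), Cux1 by 0.65 (SE 0.07), Pou3f3 by 0.55 (SE 0.05), Bcl11b by 0.42 (SE 0.05), Tbr1 by 0.37 (SE 0.07) and Sox5 by 0.21 (SE 0.06). Bhlhe22 was the exception at 0.17 (adjusted p = 0.0641). After thinning 4 of the 7 calls were kept, and Bcl11b was at -0.15, Tbr1 at -0.34 and Sox5 at -0.09. Without cells holding Eomes or Neurog2, 5 were kept, and Bcl11b was at -0.16 and Sox5 at -0.07. Of 9 listed deep-layer genes, 3 rose and 1 fell, led by Rprm (1.03, SE 0.05), Nfia (0.54) and Pcp4 (0.50). Of 10 listed upper-layer genes, 3 rose and 4 fell, with Mef2c at -0.51. Fezf2-positive cells also had more Tac2 (1.30), which was at 0.02 after thinning and not called, more Nr2f2 (0.93) and Vim (0.93), and less Dlx2 (-1.71) and Dlx1 (-1.57), homeobox genes of GABAergic neurons.

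Bcl11b-positive cells had higher Bhlhe22 (0.78, SE 0.06), Tbr1 (0.72, SE 0.06), Cux2 (0.56, SE 0.08) and Sox5 (0.40, SE 0.06). These 4 of 8 stood beside 29.8% of 7864 genes called, and Fezf2 (-0.16, adjusted p = 0.0701), Cux1, Pou3f2 and Pou3f3 did not pass. Without cells holding Eomes or Neurog2, 1 of the 4 calls was kept, Tbr1 at 0.97, while Bhlhe22 was at 0.07, Sox5 at 0.10 and Cux2 at -0.08. After thinning 3 were kept, and Sox5 was at 0.07. The listed deep-layer genes went up in 7 and down in 3 of 10, with a median of 0.46 against 0.02 over all genes, and Lmo3 (0.70), Tshz2 (0.63) and S100a10 (0.61) led. All 3 were lower in Neurod2-positive than in Neurod2-negative cells, at -0.95, -1.34 and -2.32, where 4 of the 11 listed deep-layer genes tested rose and 7 fell. The largest rises were in Ebf1 (1.80), a striatal neuron gene which was at 0.58 in cells with at least 2 Neurod2 UMIs and no UMI of a GABAergic gene, and Islr2 (1.79). The largest falls were in Neurog2 (-1.90), Gadd45g (-1.84) and Eomes (-1.65), genes of newborn neurons and intermediate progenitors, and Gadd45g was at -0.59 without cells holding the other two. Cells with a UMI of a GABAergic gene made up 23.1% of Bcl11b-positive and 16.7% of Bcl11b-negative cells, and since the stricter gate also raised the Neurod2 minimum, their part alone in these differences was not tested.

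Tbr1-positive cells differed from the rest in fewer genes, 11.1% of 7855. Bcl11b (0.50, SE 0.04), Pou3f2 (0.23, SE 0.04) and Bhlhe22 (0.20, SE 0.05) rose, and Fezf2 (-0.11), Sox5 (0.01), Cux1 (0.02), Cux2 (0.21) and Pou3f3 (0.02) did not pass. After thinning Bhlhe22 was at -0.01 in Tbr1-positive cells, and under the stricter gate at 0.02. Tfap2d (1.24), Zic1 (1.08) and Reln (1.0), the last a secreted protein of Cajal-Retzius cells, were among the largest rises, although Reln was at 0.58 after thinning and no longer called (adjusted p = 0.0572 in limma), and Aldoc (-1.6), an enzyme marker of radial glia, was the largest fall. Sox5-positive cells differed in 6.73% of 7864 genes. Bhlhe22 (0.39), Cux2 (0.30), Pou3f3 (0.29) and Pou3f2 (0.17) rose, and no other deep-layer factor passed, with Bcl11b at -0.02, Tbr1 at -0.12 and Fezf2 at -0.09. Of these 4 calls 3 were kept after thinning, 2 under the stricter gate, where Cux2 was at 0.17 and Pou3f2 at 0.11, and 1 without cells holding Eomes or Neurog2, that of Pou3f3 at 0.27. Of the listed deep-layer genes in Sox5-positive cells, 1 rose and 4 fell of 10, and of the upper-layer list 4 rose and 0 fell, and beyond the list the axon guidance receptor Nrp1 was at 0.59.

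Cux2-positive cells stood out among the upper-layer sets, with 16.1% of 7843 genes called and all 8 other factors changed. Cux1 (0.69, SE 0.06), Pou3f2 (0.69, SE 0.05), Pou3f3 (0.58, SE 0.05), Bhlhe22 (0.42, SE 0.08), Bcl11b (0.34, SE 0.06), Sox5 (0.32, SE 0.07) and Tbr1 (0.29, SE 0.07) rose, and Fezf2 fell by 0.71 (SE 0.11). Without cells holding Eomes or Neurog2, 4 of the 8 calls were kept, those of Cux1, Pou3f2, Pou3f3 and Fezf2, while Bhlhe22 was at 0.11, Sox5 at 0.09, Tbr1 at 0.29 (adjusted p = 0.0597 in limma) and Bcl11b at -0.13. After thinning 7 were kept, with Bhlhe22 at 0.26, and under the stricter gate 7, with Tbr1 at 0.15. Fam84a (1.25), Nav2 (1.13) and Arpp21 (1.11) were among the largest rises, and Vim (-1.44), Tac2 (-1.37), Neurog2 (-1.36) and Rprm (-1.26) fell.

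Pou3f2-positive cells had higher Cux2 (0.97, SE 0.09), Pou3f3 (0.78, SE 0.05), Cux1 (0.69, SE 0.05) and Sox5 (0.32, SE 0.06) and lower Fezf2 (-0.67, SE 0.09), Bhlhe22 (-0.33, SE 0.06) and Bcl11b (-0.21, SE 0.05). The 7 of 8 called stood beside 9.62% of 7862 genes. After thinning 5 of the 7 were kept, and Bcl11b was at -0.06 and Bhlhe22 at -0.23. Ptn (1.17), the axon guidance receptor Robo2 (1.06) and the paralog Pou3f1 (1.03) rose, and Tac2 (-1.62), Nr2f2 (-1.56), Synpr (-1.53) and Rprm (-1.37) fell. Of the listed deep-layer genes 2 rose and 5 fell of 10, with a median of -0.35, and of the upper-layer list 3 rose and 2 fell.

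Pou3f3-positive cells were alike, with higher Pou3f2 (0.76, SE 0.05), Cux2 (0.74, SE 0.09), Cux1 (0.52, SE 0.06) and Sox5 (0.35, SE 0.07) and lower Fezf2 (-0.39, SE 0.07) and Bcl11b (-0.21, SE 0.05), 6 of 8 beside 3.7% of 7865 genes. Dab1 (0.75) and Pdzrn3 (0.74) were among the largest rises and Tac2 (-1.52) fell most. After thinning 4 of the 6 calls were kept, and Bcl11b was at 0.11 and Sox5 at 0.27 in these cells. Under the stricter gate 5 were kept, and Bcl11b was at -0.05. Cux1-positive cells differed least by this measure after Pou3f3, with 3.97% of 7862 genes called. Cux2 (0.48), Pou3f2 (0.39), Pou3f3 (0.36) and Bhlhe22 (0.24) rose and Fezf2 fell by 0.33. Without cells holding Eomes or Neurog2 the calls of Pou3f2 and Pou3f3 were kept and the other 3 were not, with Cux2 at 0.36, Bhlhe22 at 0.18 and Fezf2 at -0.40. Top2a (1.11), a gene of dividing cells, led the rises but was at -0.08 after thinning, and Hba-a1 (-1.69), a globin of red cells, led the falls but was not called after thinning or under the stricter gate. The adhesion gene Lsamp (0.88) was called under each of those.

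Bhlhe22-positive cells differed in the most genes, 35.7% of 7859. Bcl11b (0.50, SE 0.05), Sox5 (0.39, SE 0.06), Cux2 (0.31, SE 0.10), Cux1 (0.27, SE 0.06) and Fezf2 (0.24, SE 0.07) rose and Pou3f2 fell by 0.15 (SE 0.05), while Tbr1 (0.14) and Pou3f3 (0.05) did not pass. Cntn2 (1.58), Opcml (1.5), Gabra2 (1.48), Jph4 (1.44) and Cnr1 (1.36), surface, synaptic and membrane genes of maturing neurons, rose, and Neurog2 (-2.31), Gadd45g (-2.08) and Eomes (-2.06) fell. Of the listed upper-layer genes 5 rose and 1 fell of 10, led by Mef2c (1.22), and Foxp2 fell by 1.12. Without cells holding Eomes or Neurog2, 2 of the 6 calls were kept in Bhlhe22-positive cells, with Fezf2 at 0.73 and Pou3f2 at -0.23, while Bcl11b was at -0.17 and Cux2 at -0.12. After thinning 4 were kept, with Cux2 at 0.28 and Pou3f2 at -0.03, and under the stricter gate 4, with Cux2 at 0.20 and Fezf2 at 0.17.

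The number of genes called differed between settings, which also differed in the number of cells and in depth. Over the 9 comparisons 10138 were called, the factor itself included, 4439 after thinning, 6723 with at least 2 Neurod2 UMIs and no UMI of a GABAergic gene, and 3194 without cells holding Eomes or Neurog2, and for Bcl11b the last of these left 130 of 2347. Of the 50 calls between factors, 48 were kept in the same direction in cells of 3000 UMIs or more with all of their UMIs, 36 after thinning, 43 under the stricter gate and 31 without cells holding Eomes or Neurog2, and for Pou3f2 and Pou3f3 the last of these kept 7 of 7 and 6 of 6. Of the 90 genes named by rank, 74 were called after thinning, 70 under the stricter gate and 80 without cells holding Eomes or Neurog2. The housekeeping list gave no call in Fezf2-, Tbr1-, Sox5-, Cux1-, Pou3f2- and Pou3f3-positive cells and 1, 1 and 2 in Bcl11b-, Cux2- and Bhlhe22-positive cells. Among the paralogs, Pou3f1 fell in Fezf2-positive cells (-0.83), did not pass in Tbr1-positive cells (-0.06) and rose in the other 7 comparisons, from 0.19 with Bhlhe22 to 1.03 with Pou3f2. Sox6, a paralog of Sox5, rose in Fezf2-positive cells (0.26) and fell with Bhlhe22 (-1.34), Bcl11b (-0.89), Cux2 (-0.70), Sox5 (-0.43) and Tbr1 (-0.37).

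**Figure D4:**
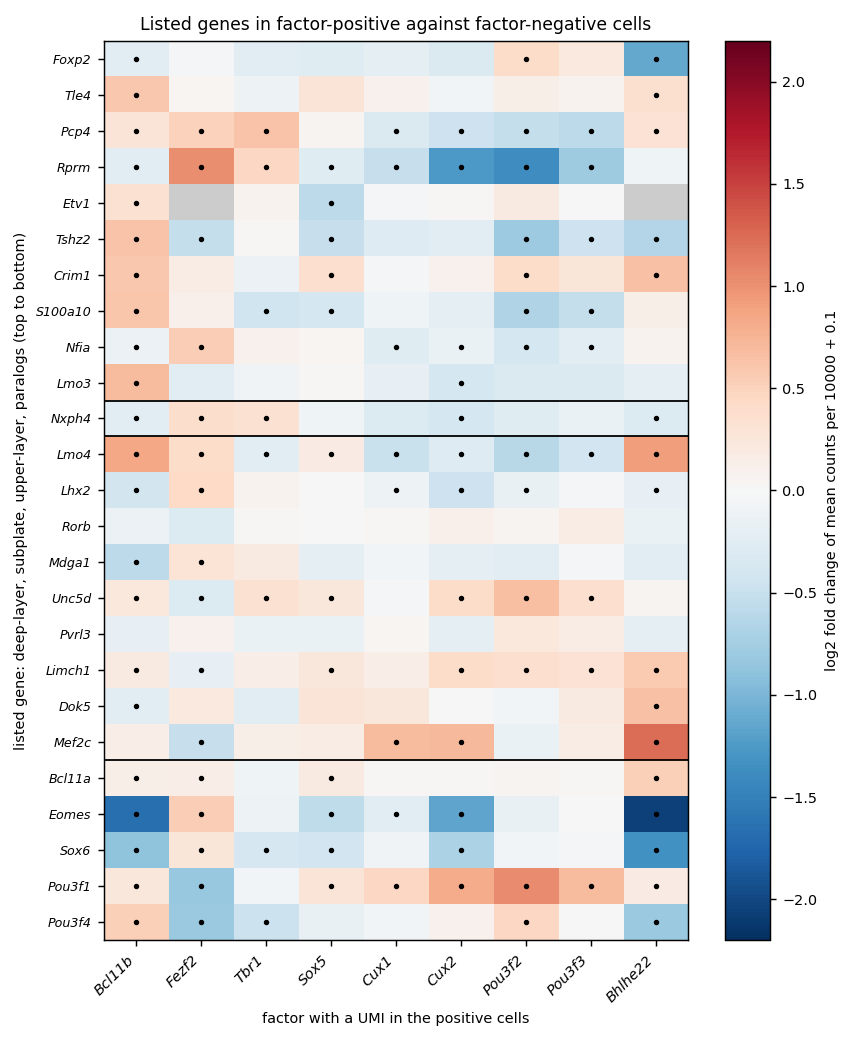
Log2 difference (colour) of listed deep-layer, subplate, upper-layer and paralog genes (vertical axis, groups divided by lines) between Neurod2-positive cells with and without a UMI of the factor on the horizontal axis, with a dot where adjusted p is under 0.05 in limma over all genes and grey where the gene was not tested. Rprm is red with Fezf2 (1.03) and blue with Cux2 (-1.26) and Pou3f2 (-1.37).

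The comparison of genotypes asks whether loss of 1 Setd5 copy moved the factors. No factor passed the test, 0 of 9 over all cells against 0.086% of 8137 genes and 0 of 9 in Neurod2-positive cells against 0.0763% of 7864 genes (limma). At an unadjusted p under 0.05 there was 1 of 9 over all cells, beside 353 of 8137 genes (4.34%), and 0 of 9 in Neurod2-positive cells, beside 307 of 7864 (3.9%). The design has 2 fetuses per genotype, and the 6 genes called in Neurod2-positive cells were Setd5 (-0.90, adjusted p = 0.00466), Xist, Tsix, Kdm5d, Eif2s3y and Ddx3y, of which the last 5 are X- or Y-linked.

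In Neurod2-positive cells, Bcl11b stood at 2.43 and 2.75 counts per 10000 in the Setd5+/+ libraries against 2.12 and 2.42 in the Setd5+/- libraries, listed here as WT3 and WT6, then Het5 and Het9. Fezf2 was 0.750 and 0.929 against 0.789 and 0.653, and Tbr1 1.42 and 1.25 against 1.23 and 1.14. For Bcl11b and Tbr1 the Setd5+/- libraries lay just below the Setd5+/+ ones, and for Fezf2 they overlapped. The log2 differences of these 3 genes were -0.18 (SE 0.08), -0.19 (SE 0.11) and -0.15 (SE 0.08), and that of Sox5, at 1.34 and 1.40 against 1.37 and 1.29, was -0.04 (SE 0.07), each with adjusted p = 0.989.

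Cux1 was 1.66 and 1.49 against 1.67 and 1.77, Cux2 0.599 and 0.436 against 0.600 and 0.638, and Pou3f3 2.50 and 2.33 against 2.58 and 2.70. In all of these the Setd5+/- libraries were the higher, although Cux1 and Cux2 of WT3 nearly met Het5. Pou3f2 was 3.14 and 2.63 against 3.12 and 3.13, so that WT6 alone stood apart, and Bhlhe22 was 1.17 and 1.55 against 1.39 and 1.59, so that WT3 alone was low. The log2 differences were 0.12 (SE 0.07) for Cux1, 0.23 (SE 0.12) for Cux2, 0.12 (SE 0.06) for Pou3f3, 0.12 (SE 0.08) for Pou3f2 and 0.13 (SE 0.12) for Bhlhe22, each with adjusted p = 0.989. Without WT6 the Pou3f2 difference was -0.0036, and without WT3 that of Bhlhe22 was -0.06.

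All 4 deep-layer factors thus had differences below 0 and all 4 upper-layer factors above 0 in Neurod2-positive cells, none of them past the threshold. The libraries of the genotypes did not overlap for 5 of the 9 (Bcl11b, Tbr1, Cux1, Cux2 and Pou3f3), against 32.5% of all genes. The makeup of the gate moved with this: cluster 0 held 32.3% and 28.9% of Neurod2-positive cells in Setd5+/+ and 33.3% and 39.5% in Setd5+/- libraries, and cluster 6 held 16.6% and 18.4% against 14.3% and 14.3%. The part of this in the differences was not tested. Within clusters the signs were mixed and no difference was called. In cluster 0 all 4 deep-layer factors were below 0 (Fezf2 at -0.38, Bcl11b at -0.21) and all 4 upper-layer factors above it (Cux2 at 0.15, Pou3f3 at 0.14), and in cluster 1 the counts were 4 of 4 and 3 of 4. In cluster 6 Fezf2 was at 0.20 while Cux2 was at -0.29 and Pou3f2 at -0.14. In cluster 4 Tbr1 was at 0.16, and none of the 3 upper-layer factors tested was above 0, with Cux1 at -0.10, Pou3f2 at -0.22 and Pou3f3 at -0.28. The listed deep-layer genes had a median of -0.34 against 0.00 over all genes, with 2 of 10 above 0, 6 at an unadjusted p under 0.05 and 0 called, and the upper-layer list a median of 0.02 with 5 of 10 above 0, 4 at an unadjusted p under 0.05 and 0 called, beside the 3.9% of all genes. Rprm (-0.38, adjusted p = 0.752) and Tshz2 (-0.78, adjusted p = 0.792) were among the listed genes. Striatal markers moved with these genes: the 6 listed, none of them at 0, summed to 1.48 and 1.90 counts per 10000 in the Setd5+/+ and 1.27 and 1.35 in the Setd5+/- libraries of Neurod2-positive cells, and over all cells Isl1, a homeobox gene of striatal neurons, fell by 0.93 (adjusted p = 0.0367, limma). Tshz2 was among the 10 leading genes of the striatal neuron-like cluster. In cells with at least 2 Neurod2 UMIs and no UMI of a GABAergic gene the difference of Bcl11b was -0.23, and for the deep-layer list the part of striatal cells was not tested.

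Over all cells, Bhlhe22 was 0.678 and 0.723 in Setd5+/+ and 0.812 and 0.947 in Setd5+/- libraries, a log2 difference of 0.29 (SE 0.08, adjusted p = 0.869, limma), the 1 factor with an unadjusted p under 0.05. Its libraries did not overlap, which held for 3 of 9 factors (Cux2 and Pou3f3 the others) against 32% of all genes. Neurod2-positive cells were also more frequent in Setd5+/- libraries, and 96.3% of Bhlhe22 molecules lay in them, but the part of this in the difference was not tested. The difference of the genotype effect between Neurod2-positive and Neurod2-negative cells passed the threshold for no factor, the lowest being Fezf2 (-0.40, adjusted p = 0.873, limma).

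Within clusters, 0 of 77 factor and cluster tests passed, against 0.105% of 90677 gene and cluster tests, and 10 (13%) had an unadjusted p under 0.05, against 5.03% of all tests. The lowest was Bhlhe22 in cluster 6 (0.34, adjusted p = 0.513, limma), while the same gene was at -0.44 in cluster 1 and -0.57 in intermediate progenitor-like cells. Pou3f3 in interneuron-like cells was called when Het5 was left out (0.76), and not otherwise (0.55). Bcl11b was below 0 in clusters 0, 1, 4 and 6, from -0.21 to -0.09, with no unadjusted p under 0.05 in any cluster.

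**Figure D5:**
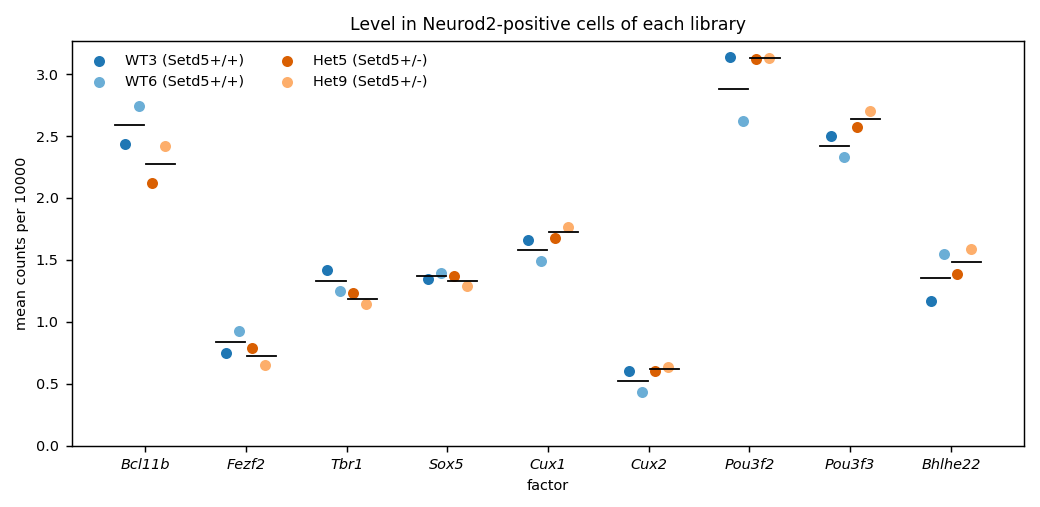
Mean counts per 10000 UMIs (vertical axis, linear from 0) of each factor in the Neurod2-positive cells of each library, with blue points for Setd5+/+, orange points for Setd5+/- and bars for the mean of each genotype. Bcl11b and Tbr1 lie slightly lower and Cux1, Cux2 and Pou3f3 slightly higher in Setd5+/- libraries, and all differences are within 0.23 on the log2 scale and not called.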

How the data were processed

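Single-cell RNA-seq of 4 libraries, 2 per genotype, was used. Per the labels, the submitters' processing notes name mm10 as the build and list Seurat 2.3.0 and Cell Ranger 2.1. The authors deposited 1 table of natural log values, ln(1 + counts per 10000 UMIs), for 16600 genes and 6562 cells that they had already filtered, so that cells they removed were not analysed here. UMI counts were recovered from these values, and 100% of 14848520 values above 0 were whole within 0.001. Library totals were 8205330 to 11742956 UMIs, which limits the precision for low genes, and exact binomial intervals (95%) were computed for shares.

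The factors, gene lists and tests were chosen with earlier results of these data known. Barcode prefixes gave the genotype. Because the deposited unit was not raw counts, limma 3.58.1 (R 4.3.3, trend) was run on log2(mean counts per 10000 + 0.1) per library, for genes with a mean of at least 0.1, with Benjamini-Hochberg adjustment over all genes tested and a threshold of 0.05. Genotypes were compared over libraries, and cell groups of the same library with library as a block. Nothing states that fetuses came from separate litters, so p-values measure the spread between these libraries. Levels are means over cells. Co-detection is a log2 odds ratio per library with 0.5 added to each count, also within quintiles of depth. Clusters used scanpy 1.11.5 (2000 variable genes without the 9 factors, 20 principal components, 20 neighbours, Leiden). No doublets were removed in the main analysis, and 64 cells (0.975%) were called as doublets and left out in an alternative. Named genes were the 9 factors, Setd5, listed genes that passed a test or had high means, the genes most similar over clusters, and the 5 largest changes called in each direction, with the same sign in all 4 libraries, for each factor. The few other genes were chosen after their values were seen. Alternatives were pseudocounts of 0.01 and 1, no filter, summed UMIs, cells thinned to 3000 UMIs with shallower cells left out, a stricter Neurod2 gate, no shared barcodes, no doublets, other cluster resolutions and leaving out each library. The limma script was tested on simulated data. Results for some listed genes are not reported here.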

Additional observations from a re-analysis of the deposited data

Results flagged for a closer look

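For 2 of the 36 factor pairs, both Setd5+/+ libraries lay on one side of 0 and both Setd5+/- libraries on the other, and the difference was not tested. Bcl11b with Pou3f3 had log2 odds ratios of -0.04 and -0.07 in Setd5+/+ and 0.17 and 0.11 in Setd5+/- libraries, with a mean of 0.043. Fezf2 with Sox5 had 0.15 and 0.13 against -0.02 and -0.25, with a mean of 0.0026. All of these values lie within the range of the housekeeping pairs, -0.71 to 0.70.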

How the results depend on the processing

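No paired analysis was possible because, for the comparison of genotypes, the barcode prefixes do not give the replicate number of a library, whereas cell groups of the same library were compared with library as a block. Changing the pseudocount to 0.01 (all but the cluster tests) or 1 changed no call of a factor, nor did keeping low genes or leaving out doublets, which were fitted for the genotypes only, and the only fitted difference of a factor that turned sign was that of Bcl11b in cluster 3 between genotypes with a pseudocount of 1, which was not called. Without doublets, Bcl11b with Cux1 and Fezf2 with Sox5, both near 0, went to -0.00074 and -0.0024. The genes called over the 9 comparisons went from 10138 to 9992 and 10091 with these pseudocounts. Differences between genotypes that changed sign were all uncalled: Fezf2 over all cells was 0.0021 with summed UMIs and ran from -0.15 to 0.13 with 1 library left out, Tbr1 from -0.16 to 0.20, Cux1 from -0.025 to 0.15 and Pou3f2 from -0.045 to 0.31, and in Neurod2-positive cells Pou3f2 ran from -0.0036 to 0.24 and Bhlhe22 from -0.056 to 0.32. The cluster tests gave 0 to 1 call with 1 library left out. Thinning to 3000 UMIs put Bhlhe22 in Tbr1-positive cells at -0.012 and Bcl11b in Pou3f3-positive cells at 0.11, lowered the genes called from 10138 to 4439, and gave classes of 15.7% deep only, 19.9% upper only, 58.8% both and 5.62% neither. The stricter gate gave 6723 genes, 9.09% upper only, 81.4% both and 0.862% neither. Without cells holding Eomes or Neurog2, an alternative chosen after the data were seen, there were 3194 genes called, 3 pairs below 0 in every library, 81.9% both and 0.794% neither, and Cux2 in Bcl11b-positive cells was -0.078, Bcl11b in Cux2-positive cells -0.13, Bcl11b in Bhlhe22-positive cells -0.17 and Cux2 in Bhlhe22-positive cells -0.12. The cause of these changes was not tested.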
